A study of Mus musculus with 8 samples.

Results

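The Rtl1-antisense miRNAs are 10 mature miRNAs cut from 5 hairpins, miR-431, miR-433, miR-127, miR-434 and miR-136, which lie on the strand opposite to the gene Rtl1 in the imprinted Dlk1-Dio3 region of mouse chromosome 12. Both arms of each hairpin, the 5p product and the 3p product, were taken by name from the 1915 mature miRNA names in the files. All 10 were listed, and all 10 passed the filter on low values that left 601 names for testing. The libraries hold short RNA of prefrontal cortex from C57BL/6 mice aged 12 weeks: 4 come from Fkbp5 knockout mice (replicates 1, 2, 4 and 5) and 4 from wild-type mice (replicates 1, 2, 3 and 4). The product of Fkbp5 is a co-chaperone that dampens glucocorticoid receptor signalling. The sources used here do not give the sex of the mice, the knockout allele, or whether each library is 1 animal, and every p-value below therefore reflects library-to-library spread, which may be technical.

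In the Dlk1-Dio3 region the protein-coding genes Dlk1, Rtl1 and Dio3 are expressed from the paternal chromosome, and the non-coding RNAs, which carry many miRNA hairpins, from the maternal one. Rtl1 derives from a retrotransposon and is needed in mouse for the capillaries of the placenta. The maternal transcript antisense to Rtl1 is cut into hairpins and then into mature miRNAs, which pair without mismatch to the paternal Rtl1 messenger RNA and direct its cleavage. A miRNA otherwise finds its targets mainly through its seed, bases 2 to 8 from the 5′ end, so the 2 arms of a hairpin usually have different targets, and the arm that is kept decides which ones are bound.

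The mature sequences are shown because each hairpin's arms were measured apart, with the seed in capitals. The prefix mmu marks a mouse miRNA. They are from RefSeq on GRCm38.p6, the assembly that mm10 names, and all 10 names were matched.
mmu-miR-431-5p: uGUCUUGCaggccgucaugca
mmu-miR-431-3p: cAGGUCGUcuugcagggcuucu
mmu-miR-433-5p: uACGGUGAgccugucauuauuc
mmu-miR-433-3p: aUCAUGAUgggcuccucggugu
mmu-miR-127-5p: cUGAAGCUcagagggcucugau
mmu-miR-127-3p: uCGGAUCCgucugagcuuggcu
mmu-miR-434-5p: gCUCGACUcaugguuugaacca
mmu-miR-434-3p: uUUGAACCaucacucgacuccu
mmu-miR-136-5p: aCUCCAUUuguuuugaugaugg
mmu-miR-136-3p: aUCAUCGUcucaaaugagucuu

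The 10 seeds were all different, and 0 other mature names in that table had any of them. No other mature sequence of the same length there lay within 2 mismatches of a member. Sequences of another length or shifted by a base were not compared. The higher arm of each hairpin, given below, began with U in 3 cases and with A in 2. Over the 114 expressed hairpins with a sequence, the higher arm began with U in 44.7% and the lower arm in 27.2%.

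All 5 hairpins lie within the coding sequence of Rtl1, which is in 1 exon (chromosome 12, 109590172 to 109595403, minus strand; gene 109589193 to 109600330), and their own strand is plus. From left to right on the chromosome, Mir431 is at 109590447 to 109590537, Mir433 at 109591715 to 109591838, Mir127 at 109592846 to 109592915, Mir434 at 109594506 to 109594599 and Mir136 at 109595327 to 109595388. The antisense transcript meets them in that order, over 4942 bases. Rtl1 is read the other way, so the miR-136 sites fall in its first 25 codons and the miR-431-5p site ends at codon 1649 of 1744. The stretches of the Rtl1 transcript opposite 3 of the higher arms are shown as DNA letters, with the bases opposite the seed in capitals.
Rtl1 codons 1201 to 1208, opposite miR-433-3p: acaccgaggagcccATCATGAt
Rtl1 codons 832 to 839, opposite miR-127-3p: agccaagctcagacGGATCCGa
Rtl1 codons 273 to 280, opposite miR-434-3p: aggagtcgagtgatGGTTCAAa
Of 141767 GENCODE transcripts, the full complement of 8 members occurred in Rtl1 and no other gene, and that of both miR-136 arms in Rtl1 and in Mir3071, a hairpin annotated on the strand opposite to Mir136.

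The arms of miR-434 resemble each other, as those of miR-431 do. In the Mir434 hairpin, with both arms in capitals, the run UUUGAACCA stands 3 times: at the end of the 5p arm (bases 14 to 22), at the start of the 3p arm (bases 1 to 9) and upstream of both.
Mir434: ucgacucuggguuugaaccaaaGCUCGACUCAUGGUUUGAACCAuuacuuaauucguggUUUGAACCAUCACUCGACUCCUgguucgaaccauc
Mir431: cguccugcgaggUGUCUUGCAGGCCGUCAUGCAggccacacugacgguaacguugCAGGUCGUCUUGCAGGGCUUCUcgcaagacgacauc
The arms of miR-431 share GUCUUGCAGG, which covers the seed of the 5p arm and bases 7 to 16 of the 3p arm. Of 678 hairpins with both arms in the table, 1.33% had arms that share a run of at least 9 bases, and the median longest run was 4 bases. The 7 letters that pair with the miR-434-3p seed, GGTTCAA, occurred 4 times in the sense strand of the Rtl1 transcript. Read on the other strand, the run that stands 3 times in the Mir434 hairpin holds these letters, so 3 of the 4 copies lie opposite that hairpin. As many copies were found in 0.024% of 58797 protein-coding transcripts, which differ in length. Because the copies are built in by the hairpin, that share does not measure an enrichment of target sites. The 7 letters opposite the miR-434-5p seed, AGTCGAG, occurred 3 times (0.01% of transcripts with as many). Each count includes the arm's own site. Of the other members, miR-431-5p had 3 copies (0.243%), miR-431-3p 2 (0.44%) and miR-136-5p 2 (4.55%). Both arms of miR-433 and of miR-127, and miR-136-3p, had 1 copy each, their own site, a count reached by 6.25% to 21.3% of transcripts.

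Each value is what the file headers call a normalized count, here rescaled between libraries, and has no fixed unit. Totals of the deposited values ran from 17728879 to 19776148 in knockout and from 16180699 to 21555993 in wild type. The neuronal miRNAs miR-124-3p, miR-128-3p and miR-9-5p summed to between 6364218 and 8191058 in knockout and between 6310402 and 8043372 in wild type, whereas liver miR-122-5p was between 320.2 and 454.03 in knockout and between 361.4 and 427.6 in wild type. Wild-type replicate 1 stood apart. Of 368 miRNAs with a mean of at least 100, 56 lay at least 0.5 on the log2 scale from their mean in the other 7 libraries there, against 14 to 35 in each other library. Several results that rest on it are given with and without it. Small RNA libraries do not measure the Fkbp5 transcript, so they give no check of the genotype labels.

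The 10 miRNAs made up between 0.885% and 1.05% of all values in the knockout libraries and between 0.889% and 1.27% in the wild-type libraries, where 1.27% was replicate 1 and the others reached 1.001%. miR-434-3p alone was 67.6% to 68.4% of the 10 in knockout, and 67.1% to 68.1% in wild type apart from replicate 1, where it was 79.2%. Levels ran from a mean of 132549 for miR-434-3p over all 8 libraries to 111.8 for miR-431-3p. Among all 1915 names, miR-434-3p ranked between 14 and 20 by library and miR-127-3p between 41 and 46. The ranks of miR-431-3p were between 343 and 370.

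**Figure D1:**
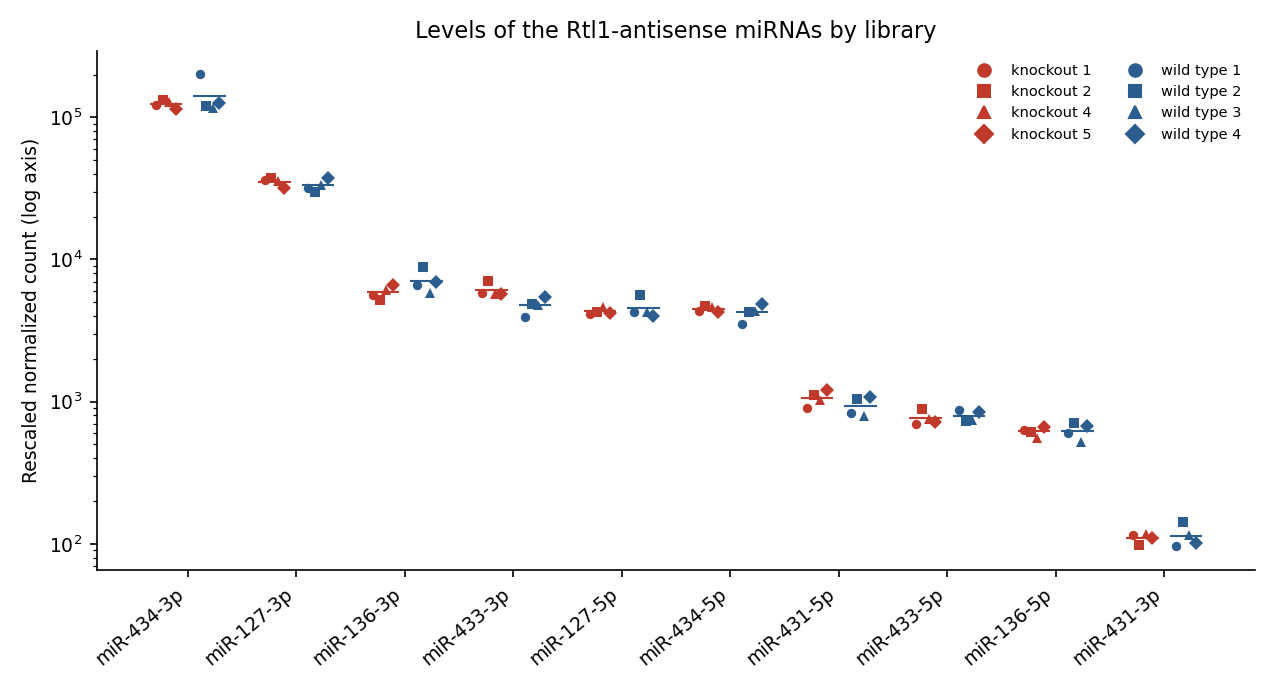
Rescaled normalized counts (log axis) of the 10 Rtl1-antisense miRNAs, ordered by mean level. Each symbol is 1 library, with knockout left of wild type, and the horizontal line is the mean of 4 libraries; miR-434-3p lies highest, and its wild-type replicate 1 (200572) stands above the other 7 libraries.

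The order of levels was clear at its ends and blurred in the middle. miR-434-3p was above miR-127-3p in 8 of 8 libraries, 3.87-fold on average, and miR-127-3p was 5.30-fold above miR-136-3p in all 8. The next 4, miR-136-3p (mean 6463), miR-433-3p (5414), miR-127-5p (4436) and miR-434-5p (4376), overlapped: each of the first 2 was above its neighbour in 6 of 8 libraries, and miR-127-5p was above miR-434-5p in 3 of 8. A gap of 4.38-fold, seen in all 8 libraries, separated these from miR-431-5p (1000.0). miR-433-5p (780.2) was below miR-431-5p in 7 of 8 libraries, and miR-136-5p (621.2) below miR-433-5p in 8 of 8, although the ranges over libraries overlapped in both pairs. miR-431-3p was 5.55-fold below miR-136-5p in all 8. How efficiently each sequence enters a library was not measured, and it can shift levels between miRNAs.

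The 5 hairpins share 1 antisense strand, yet their outputs, the sum of both arms, differed widely. Mir434 gave a mean of 136925 and Mir431 a mean of 1112, a ratio of 123. Along the antisense transcript, output was 1112 for Mir431, 6195 for Mir433, 38694 for Mir127 and 136925 for Mir434, and 7084 for the last, Mir136. That order of neighbours held in each of the 8 libraries. Among the 141 hairpins in which each arm averaged 20 or more, Mir434 ranked 8 by output, Mir127 22, Mir136 51, Mir433 55 and Mir431 99. A further hairpin between Mir434 and Mir136, Mir432 (109594956 to 109595030), had its mature name listed at 0 in all 8 libraries. Both names of Mir3071, which overlaps Mir136 on the Rtl1 strand, were also listed at 0 in all 8.

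**Figure D2:**
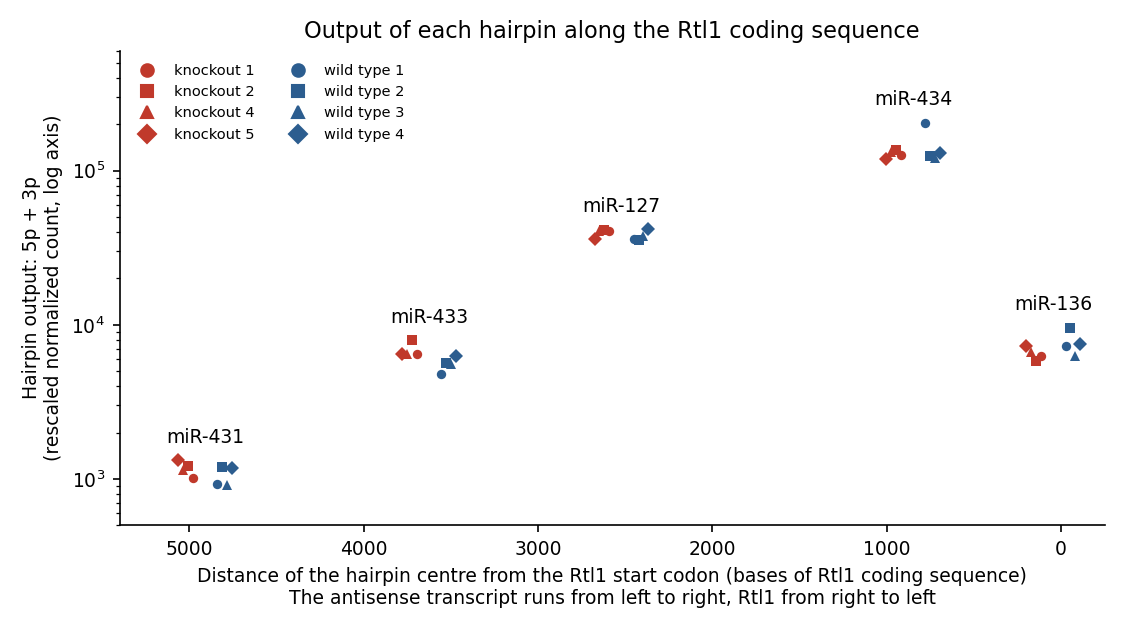
Output of each hairpin (5p plus 3p, rescaled normalized count, log axis) against the distance of its centre from the Rtl1 start codon in bases. Each symbol is 1 library, with knockout left of wild type at each hairpin; output is lowest at miR-431 (mean 1112) and highest at miR-434 (mean 136925), and no trend line is drawn.

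In 4 of the 5 hairpins the 3p arm was the higher one, and in miR-431 the 5p arm was, in each of the 8 libraries. Over the 141 hairpins, the 3p arm was higher in 64 (45.4%). The miR-434 arms were the most unequal of the 5. miR-434-3p exceeded miR-434-5p 28.2-, 28.2-, 27.6- and 26.8-fold in knockout replicates 1, 2, 4 and 5, against 56.6-, 28.02-, 26.8- and 25.8-fold in wild-type replicates 1, 2, 3 and 4. The ratios of 7 libraries thus lay in a narrow band, and that of wild-type replicate 1 was far above it.

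The other 4 hairpins had milder ratios. The higher arm exceeded the lower by 7.79- to 11.4-fold in knockout and 6.85- to 10.7-fold in wild type for miR-431, and by 7.55- to 8.72-fold in knockout and 5.35- to 9.38-fold in wild type for miR-127. For miR-136 it was 8.503- to 10.8-fold in knockout and 10.3- to 12.6-fold in wild type. The lower arm was on average 10.2% of the output of miR-431, 12.8% of miR-433, 11.5% of miR-127, 8.88% of miR-136 and 3.31% of miR-434. The median absolute log2 arm ratio over the 141 hairpins was 3.37, and the 5 hairpins had mean log2 arm ratios (5p over 3p) of 3.15 for miR-431, -2.78 for miR-433, -2.95 for miR-127, -4.90 for miR-434 and -3.37 for miR-136.

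**Figure D3:**
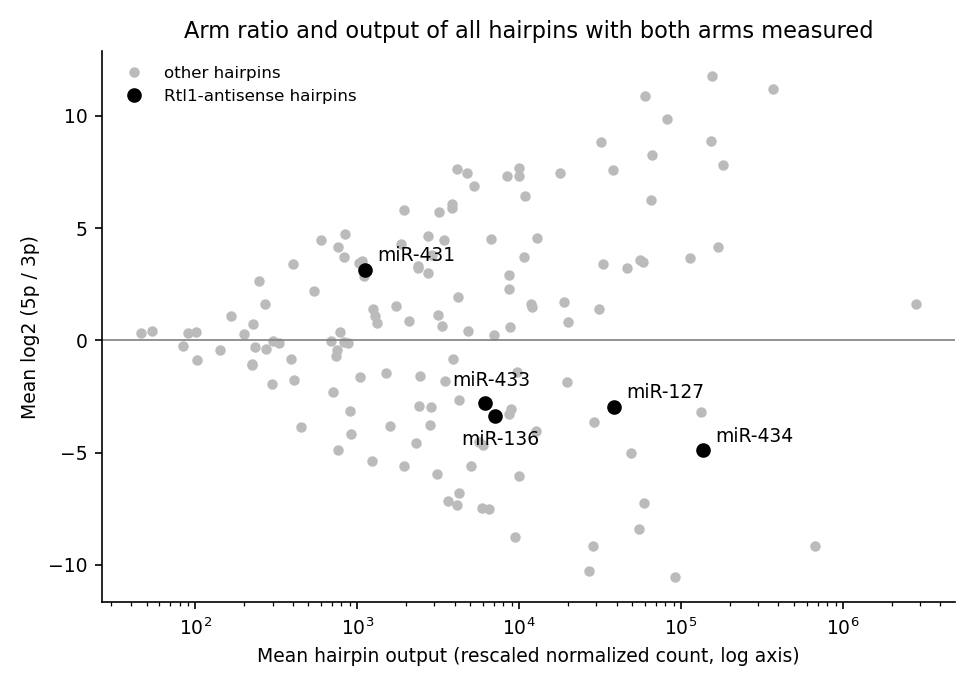
Mean log2 arm ratio (5p over 3p) against mean output (rescaled normalized count, log axis) for the 141 hairpins in which each arm averaged 20 or more. Each point is 1 hairpin averaged over 8 libraries; the 5 Rtl1-antisense hairpins (black) sit among the others, 4 of them below 0.

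The study compared the miRNAs of knockout and wild-type cortex, and for these 10 the comparison concerns their supply and the choice of arm. By limma with Benjamini-Hochberg adjustment over all 601 miRNAs, 0 of the 10 passed 0.05, and 0% of all miRNAs did. At an unadjusted p under 0.05 there was 1 of 10, miR-433-3p, against 4.33% of all miRNAs tested. The mean log2 level in the knockout was higher for 4 of the 10 and lower for 6, where it was higher for 51.4% of all miRNAs. The median log2 fold change was -0.020 over the 10 and 0.0046 over all 601. The 95% interval lay within a 2-fold change for all 10 (86.7% of all miRNAs) and within 1.5-fold for 9 of 10 (57.6%). By the same test 0 of the 5 outputs and 0 of the 5 arm ratios passed 0.05, as did 0% of the 141 hairpins by either measure. The output was higher in the knockout for 3 of 5 (54.6% of all hairpins), and its interval lay within 1.5-fold for all 5 (92.9%). The log2 arm ratio was higher in the knockout for 3 of 5 (58.2%), with an interval within a 2-fold change for all 5 (95%).

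mmu-miR-433-3p, which pairs with Rtl1 codons 1201 to 1208, had the largest log2 fold change of the 10. Its level was 5799, 7028, 5727 and 5707 in knockout replicates 1, 2, 4 and 5, against 3929, 4892, 4789.8 and 5443 in wild-type replicates 1, 2, 3 and 4. Every knockout library was above every wild-type library, with knockout replicate 2 the highest and wild-type replicate 1 the lowest. Groups that do not overlap were found for 2.16% of the 601 miRNAs, and with the knockout above for 0.666%. The means were 6065 ± 643 in knockout and 4764 ± 626 in wild type (SD, n = 4 each). On the log2 scale knockout exceeded wild type by 0.35 ± 0.13 (SE), or 1.28-fold with a 95% interval of 1.05 to 1.55. The unadjusted p was 0.0167, the smallest but 11 among the 601, and the adjusted p was 0.825 by limma. Without knockout replicate 2 the log2 fold change was 0.28 with an unadjusted p of 0.0562, and without wild-type replicate 1 it was 0.28 with 0.0302.

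The other arm of that hairpin did not follow. miR-433-5p was at 694.04, 889.5, 753.8 and 715.7 in knockout, against 880.3, 725.3, 737.2 and 845.9 in wild type. The groups overlapped throughout, and the log2 fold change was -0.064 ± 0.13 (adjusted p = 0.999 by limma). Without wild-type replicate 1 that fold change was -9.0e-07. The output of the hairpin followed the 3p arm: it was 6493, 7917, 6480.4 and 6422 in knockout, against 4809.7, 5618, 5527 and 6289 in wild type, a log2 fold change of 0.30 ± 0.11 (unadjusted p = 0.0214, adjusted p = 0.998 by limma). The outputs did not overlap, as for 2.13% of the 141 hairpins. Without knockout replicate 2 the change in output was 0.22, with an unadjusted p of 0.0744. Without wild-type replicate 1 it was 0.24, with an unadjusted p of 0.0395 by limma.

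The arm ratio of miR-433 therefore leaned further to the 3p arm in the knockout. The log2 arm ratio (5p over 3p) was -3.06, -2.98, -2.92 and -2.99 in knockout replicates 1, 2, 4 and 5, against -2.16, -2.75, -2.70 and -2.69 in wild-type replicates 1, 2, 3 and 4. miR-433-3p thus exceeded its partner 7.60- to 8.35-fold in knockout and 4.46- to 6.75-fold in wild type. The genotypes did not overlap, and this was the 1 hairpin of 141 (0.709%) for which that held. The log2 change was -0.42 ± 0.17 (95% interval -0.78 to -0.053), with an unadjusted p of 0.0282. The adjusted p was 0.975 by limma, so the difference did not pass correction. An unadjusted p under 0.05 was reached by 2.13% of the 141 ratios and likewise by 2.13% of the 141 outputs. Of 14 alternatives, 9 kept the unadjusted p under 0.05. Without knockout replicate 1, 2 or 5 it was 0.0696, 0.0556 or 0.0526. Without wild-type replicate 1, which had the highest ratio, the change was -0.28 (unadjusted p = 0.0420). Level, output and ratio of miR-433 all contain the same 3p values and are not separate results. Across the other 4 hairpins the genotypes overlapped in every output and ratio. Their log2 changes in output were 0.17 ± 0.14 for miR-431, 0.063 ± 0.089 for miR-127, -0.14 ± 0.15 for miR-434 and -0.23 ± 0.13 for miR-136 (adjusted p = 0.998 for each by limma).

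**Figure D4:**
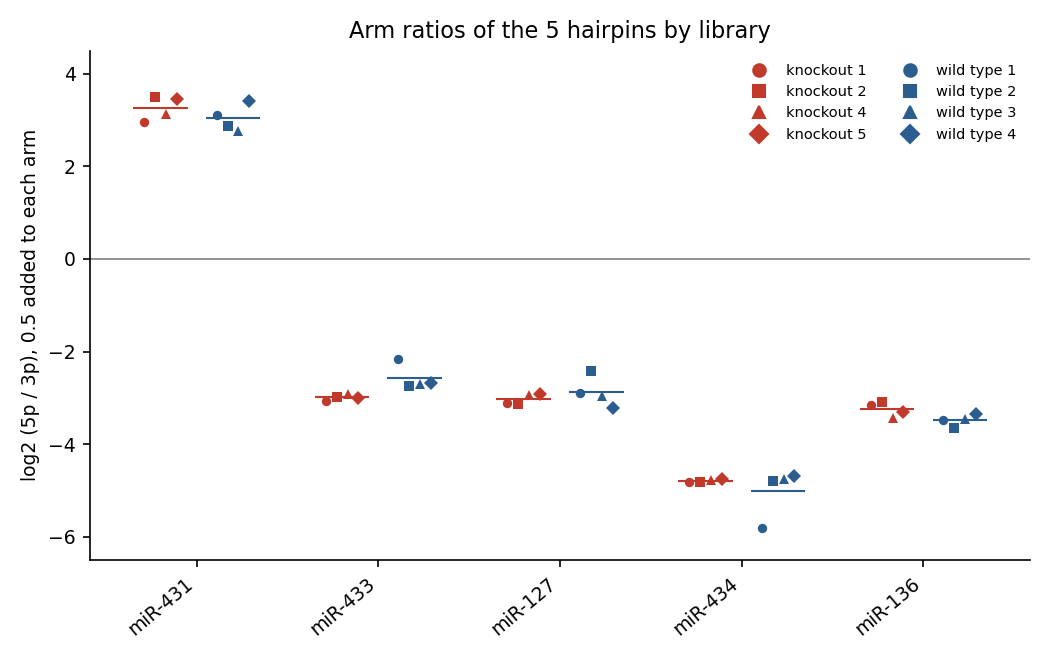
Log2 arm ratio (5p over 3p) for each of the 5 hairpins, with 0.5 added to each arm. Each symbol is 1 library, with knockout left of wild type, and the horizontal line is the mean of 4 libraries; the miR-433 ratios of the knockout (-3.06 to -2.92) lie below those of wild type (-2.75 to -2.16), and miR-434 in wild-type replicate 1 lies at -5.82.

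mmu-miR-434-3p, the most abundant of the 10 and the arm that opens with the repeated run, had its genotype difference set by 1 library. It was at 122188, 132429.8, 127654 and 114997 in knockout replicates 1, 2, 4 and 5, against 200572, 119947, 116959.8 and 125646 in wild-type replicates 1, 2, 3 and 4. Apart from wild-type replicate 1, the wild-type libraries lay within the range of the knockout libraries. The log2 fold change was -0.14 ± 0.16 (adjusted p = 0.999 by limma) and became 0.054 without wild-type replicate 1. The partner arm went the other way in that library. miR-434-5p was at 4335, 4701, 4627 and 4289 in knockout replicates 1, 2, 4 and 5, against 3543, 4281, 4359 and 4871 in wild-type replicates 1, 2, 3 and 4. Wild-type replicate 1 was the lowest of the 8, the groups overlapped, and the log2 fold change was 0.082 ± 0.12 (adjusted p = 0.999 by limma). Leaving out that library gave 0.011 for miR-434-5p. The arm ratio of miR-434 had a log2 change of 0.23 ± 0.24 (adjusted p = 0.975 by limma), and of -0.043 without wild-type replicate 1. Among 368 miRNAs with a mean of at least 100, miR-434-3p had the sixth highest excess in that library over the other 7, 0.71 on the log2 scale, while miR-433-3p stood at -0.51.

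miR-127, of which the 3p arm is a well studied regulator of Rtl1 in the mouse placenta, had the output that varied least over the 8 libraries, with the highest 1.17-fold above the lowest. mmu-miR-127-3p was at 36236, 37149.6, 35857 and 31595 in knockout, against 31973, 30029, 33609 and 37621 in wild type. The groups overlapped, with a log2 fold change of 0.082 ± 0.10 (adjusted p = 0.999 by limma), and the 95% interval ran from 0.906- to 1.24-fold. The spread within genotypes was 0.12 (SD of log2 level), the lowest of the 10. miR-127-5p was between 4168 and 4662 in knockout and between 4009 and 5615 in wild type (log2 fold change -0.065 ± 0.12), with wild-type replicate 2 at the top; without that library it was 0.040. The arm ratio of miR-127 had a log2 change of -0.15 ± 0.18 (adjusted p = 0.975 by limma), or 0.0063 without the same library.

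miR-136-3p had the lowest fold change of the 10. It was at 5616, 5219, 6058 and 6619.8 in knockout replicates 1, 2, 4 and 5, against 6660.5, 8874, 5767 and 6890.02 in wild-type replicates 1, 2, 3 and 4. The groups overlapped, since wild-type replicate 3 lay below knockout replicates 4 and 5. The means were 5878 ± 602 in knockout and 7048 ± 1310.4 in wild type (SD, n = 4 each). The difference of -0.25 ± 0.14 on the log2 scale had an adjusted p of 0.999 by limma. The unadjusted p was 0.0998. Leaving out wild-type replicate 2 gave -0.13 (unadjusted p = 0.305), and leaving out wild-type replicate 3 gave -0.32 (unadjusted p = 0.0357). The output of miR-136 likewise had an unadjusted p of 0.103, or 0.0313 when wild-type replicate 3 was left out. miR-136-5p was at 618.2 ± 45.8 in knockout and 624.2 ± 81.6 in wild type, with a log2 fold change of -0.0075 ± 0.13, whose sign turned under other scalings. The arm ratio of miR-136 had a log2 change of 0.24 ± 0.15 (adjusted p = 0.975 by limma).

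miR-431, which in mouse promotes axon regrowth of sensory neurons, was the lowest hairpin. miR-431-5p was at 896.6, 1117, 1030.1 and 1211 in knockout, against 826.4, 1046, 793.3 and 1079.7 in wild type. The groups overlapped, with a log2 fold change of 0.19 ± 0.15 (adjusted p = 0.999 by limma). miR-431-3p, near 110.1 in knockout and 113.6 in wild type on average, had a log2 fold change of -0.032 ± 0.17, and its sign turned with upper quartile scaling. The arm ratio of miR-431 had a log2 change of 0.22 ± 0.20 (adjusted p = 0.975 by limma).

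**Figure D5:**
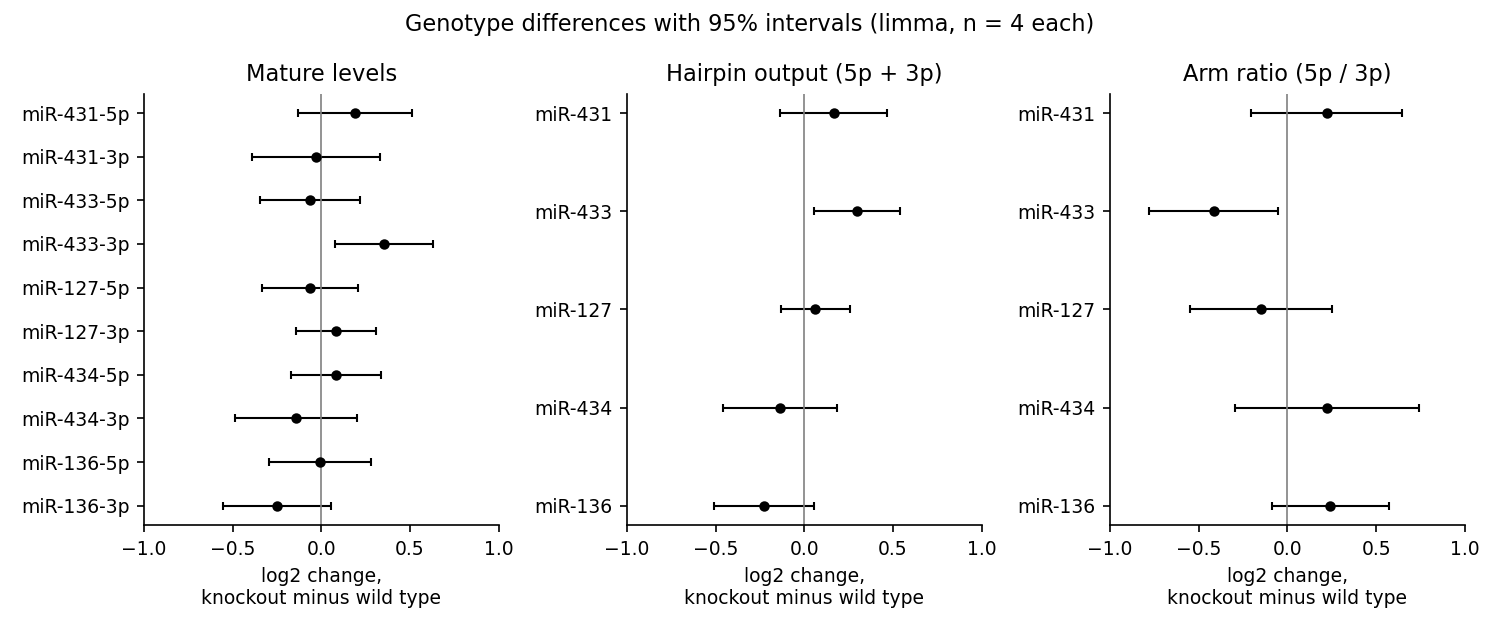
Log2 changes, knockout minus wild type, of the 10 mature levels, the 5 hairpin outputs and the 5 arm ratios. Points are limma estimates from 4 libraries each and bars are 95% intervals; the intervals of miR-433-3p (0.077 to 0.63), of miR-433 output and of the miR-433 ratio leave out 0 before any adjustment, and none passes correction.

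Levels of miRNAs in tissue depend on its cells, and in bulk RNA fewer cells of a type and less RNA per cell cannot be told apart. The summed level of each of 7 marker lists, which its most abundant marker can dominate, overlapped between the genotypes. An unadjusted p under 0.05 was reached by 1 of 3 oligodendrocyte, 1 of 4 microglia and leukocyte, and 1 of 4 endothelium and smooth muscle markers. It was reached by 0 of 3 neuronal, 0 of 2 red blood cell, 0 of 4 epithelium and olfactory and 0 of 1 liver markers. Of all miRNAs tested, 4.33% reached it. None of the markers passed adjustment by limma. The oligodendrocyte marker miR-219a-5p was between 21.5 and 30.7 in knockout and between 34.6 and 51.1 in wild type, without overlap (log2 fold change -0.61, unadjusted p = 0.0140). Those are low values. The more abundant miR-219a-2-3p, between 10936 and 14449 in knockout and between 10865 and 17807 in wild type, overlapped (log2 fold change -0.16, unadjusted p = 0.314 by limma). The smooth muscle marker miR-143-3p had a log2 fold change of -0.43 (unadjusted p = 0.0223), and the leukocyte marker miR-142a-5p one of -0.38 (unadjusted p = 0.0477). The rest of the leukocyte list was mixed, with 2 of 4 at a higher mean log2 level in the knockout. miR-223-3p had a log2 fold change of -0.35 (unadjusted p = 0.250 by limma), and miR-150-5p one of 0.17 (unadjusted p = 0.251 by limma). miR-142a-3p, from the same hairpin, had a log2 fold change of 0.0060 (unadjusted p = 0.979 by limma). That list summed to between 9108 and 13088 in knockout and between 8734 and 10630 in wild type. Markers of endothelium and smooth muscle summed to between 55340 and 85247 in knockout and between 75357 and 102560 in wild type, with 0 of 4 at a higher mean log2 level in the knockout. Those of oligodendrocytes summed to between 11754 and 15179 in knockout and between 11736 and 18686 in wild type, with 0 of 3 higher. Knockout replicate 2, which had the highest miR-433-3p, also had the highest vascular sum (85247) and the highest sum of microglia and leukocyte markers (13088) among the knockout libraries. Over all 8 libraries the highest vascular sum was in wild-type replicate 2 (102560), where miR-433-3p was at 4892. Markers of epithelium and olfactory tissue summed to between 615.8 and 3807 in knockout and between 1187 and 4701 in wild type, with 0 of 4 higher and log2 fold changes from -1.33 to -0.82. The part of these cells in the miR-433 and miR-136 values was not tested.

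The rest of the Dlk1-Dio3 region was set beside the 10. Of 97 further names on the list, 79 were tested, and 0 passed 0.05 after adjustment by limma. At an unadjusted p under 0.05 there were 2 of 79, both higher in the knockout, against 4.33% of all 601 miRNAs. In the knockout the mean log2 level was higher for 53 of the 79 and lower for 26 (median log2 fold change 0.06), beside 4 higher and 6 lower among the Rtl1-antisense miRNAs. Over all 601 miRNAs it was higher for 51.4%. The most abundant were miR-382-5p, at 39593 ± 3903 in knockout and 43541 ± 7724 in wild type, and miR-541-5p, at 38896 ± 3859 in knockout and 36320.2 ± 6591 in wild type (SD, n = 4 each). Their log2 fold changes were -0.13 ± 0.13 and 0.11 ± 0.14. miR-434-3p was above both in each of the 8 libraries.

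Over the 8 libraries no pair of arms or outputs passed a test of correlation. In 15 relations, 5 between the arms of a hairpin and 10 between outputs, the smallest adjusted p was 0.306 for Pearson's r and 0.608 for Spearman's rho (two-sided exact permutation tests, Benjamini-Hochberg). The arms of miR-434 had r = -0.74 (exact permutation p = 0.122) and rho = 0.14 (exact permutation p = 0.752), but r = 0.91 once the 2 libraries farthest from the median of the 5p arm, wild-type replicates 1 and 4, were left out. That negative r rests on wild-type replicate 1, without which it was 0.79. Leaving out that library also moved r from -0.039 to 0.56 for the miR-433 arms. Among outputs, r moved from -0.16 to 0.83 for miR-127 with miR-434, and from -0.50 to 0.73 for miR-433 with miR-434. Other relations fell, such as the miR-431 arms, from 0.029 to -0.26. These shifts were not tested, and genotype means were not removed from these correlations. The arms of miR-127 had r = -0.60 (exact permutation p = 0.0812) and rho = -0.64 (p = 0.0962 by the same exact test), with r = -0.53 without the 2 farthest libraries. The outputs of miR-433 and miR-127 had r = 0.66 (exact permutation p = 0.0685) and rho = 0.50 (p = 0.216 by the same exact test), with r = 0.50 without the 2 farthest.

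The miRNAs outside the group whose log2 levels followed the summed level of the 10 most closely, with genotype means removed, were miR-676-3p (r = 0.94 over 8 libraries), miR-130b-5p (0.94), miR-25-3p (0.90), miR-206-3p (0.89) and miR-6929-3p (0.88). Without wild-type replicate 1 these values were 0.75, 0.86, 0.17, -0.15 and 0.12, so the likeness of the last 3 rests on that library. None of the 5 is on the list of other Dlk1-Dio3 miRNAs. All points share their libraries, and the values are a description.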

How the data were processed

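Small RNA libraries were prepared from prefrontal cortex with a NEXTflex kit after enrichment of short RNA and gel size selection, per the labels' protocols. The submitters' processing notes name cutadapt 1.11, Bowtie 1.1.2, HTSeq 0.6.1p1, edgeR and mm10, with no order or settings. The authors deposited 1 value per mature miRNA and library, called a normalized count per the file headers. All are whole numbers, but because of that header the deposited values were treated as a score without a fixed unit, made by the authors before deposit. No count model was used. The values may be raw counts, since they are whole and their totals differ between libraries; the totals would then be the depth, which is otherwise unknown.

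Values were rescaled by an unweighted trimmed mean of log ratios (30% of ratios and 5% of levels trimmed at each end). A miRNA was tested if its rescaled value reached 10 in at least 4 libraries. Tests were run on log2(value + 1), on log2 output (5p + 3p + 1) and on log2 arm ratios with 0.5 added to each arm, the last 2 over 141 hairpins whose arms both had a mean of at least 20. The tests were those of limma 3.58.1 in R 4.3.3, moderated along the trend of variance with level, and p-values were adjusted by Benjamini-Hochberg (threshold 0.05). Fold changes are on these log2 scales, which understate the change of low miRNAs. The procedure was tested on simulated data. The members, the lists and the rule for naming miRNAs (the members, other hairpins in their span, the 5 most alike, and the 2 most abundant of the other region members) were chosen with earlier results of these data known. Sequences are from RefSeq and GENCODE M21.

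The replicate numbers do not pair the libraries by the labels. Other scalings, filters, pseudocounts and arm minimums, a replicate block and leaving out each library in turn were also run.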

Additional observations from a re-analysis of the deposited data

Results flagged for a closer look

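The levels, outputs, ratios and the summed share of the 10 miRNAs gave 42 sets of 4 values, and in 6 sets 1 value lay far outside the remaining 3. By chance about 1 in 20 sets would do so. The 6 are not separate, since output and ratio repeat the arms. Knockout replicate 2 stood apart for miR-433-3p, at 7028 with the others from 5707 to 5799, and for miR-433 output, at 7917 with the others from 6422 to 6493. Wild-type replicate 1 stood apart for miR-434-3p, at 200572 with the others from 116960 to 125646, and for miR-434 output, at 204115 with the others from 121318 to 130517. It also stood apart for the log2 arm ratio of miR-434, at -5.82 with the others from -4.81 to -4.69, and for that of miR-433, at -2.16 with the others from -2.75 to -2.69.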

How the results depend on the processing

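In every alternative run, 0 of the 10 members, 0 of the 5 outputs and 0 of the 5 arm ratios passed the adjusted threshold. Of 354 single values under alternatives, 14 changed sign. With total scaling miR-136-5p was at 0.018; with upper quartile scaling it was at 0.057, miR-431-3p at 0.032 and miR-433-5p at 0.00019. With 1 library left out, log2 changes ran from -0.21 to 0.054 for miR-434-3p, from -0.20 to 0.053 for miR-434 output and from -0.043 to 0.33 for the miR-434 arm ratio (the turns came without wild-type replicate 1). They ran from -0.093 to 0.079 for miR-431-3p, from -0.12 to 0.040 for miR-127-5p, from -0.076 to 0.054 for miR-136-5p and from -0.26 to 0.0063 for the miR-127 arm ratio. The sign turned without knockout replicate 2 or wild-type replicate 2 for miR-431-3p, without wild-type replicate 2 for both miR-127 values, and without knockout replicate 4 or wild-type replicate 2 or 4 for miR-136-5p. miR-433-3p stayed between 0.28 and 0.42 in its 19 alternatives, with unadjusted p above 0.05 in the values as deposited (0.0926) and without knockout replicate 2. The miR-433 arm ratio had an unadjusted p above 0.05 without knockout replicate 1, 2 or 5 (0.0696, 0.0556 and 0.0526), with the replicate block (0.0852) and in its 6 libraries unblocked (0.0556). A stricter filter left miR-431-3p untested. The count of all miRNAs at an unadjusted p under 0.05 was 26, against 50 without a filter, 15 with the stricter one and 9 in the values as deposited. With a replicate block on numbers 1, 2 and 4, miR-433-3p was at 0.40 (adjusted p = 0.534 by limma). In those 6 libraries 44 of all 584 miRNAs tested had an unadjusted p under 0.05 with the block, and 39 of 584 without it. Among them were 2 members in both runs, of which miR-433-3p was 1. The other was miR-136-3p, at -0.38 (unadjusted p = 0.0375 with the block and 0.0239 without; output 0.0416 and 0.0200); 1 of 3 knockout libraries correlated best with its own number, and the deviations of same-numbered libraries correlated at 0.067, -0.050 and 0.12. Over all miRNAs 3 passed the adjusted threshold with the block and 0 without it. Having 4 libraries a group, with unknown depth, limits the precision.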
